A study of Homo sapiens with 94 samples.

Results

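NPPB, NPPA and ANKRD1 were chosen by their symbols from the FPKM table of NCI-H226 xenografts treated with K-975, and they are 3 of the 20239 genes listed there. The choice rests in part on measured values, because NPPB was already known to be among the most lowered genes 24 h after 200 mg/kg. That contrast is therefore given below as a description with no test.

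NPPB encodes B-type natriuretic peptide and NPPA encodes atrial natriuretic peptide, hormones that stretched heart muscle releases and that lower blood volume and pressure. ANKRD1, also called CARP, encodes a muscle ankyrin repeat protein that sits on titin in the sarcomere and also enters the nucleus. All 3 genes are classical markers of mechanical load on heart muscle, and ANKRD1 is in addition a widely used target of the coactivators YAP and TAZ, which act through TEAD transcription factors.

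NCI-H226 is a human mesothelioma cell line that lacks NF2, an upstream brake on YAP and TAZ, and K-975 is an inhibitor that blocks the palmitoylation of TEAD proteins. The cells were grown under the skin of SCID mice, which lack B and T cells, so each tumor held human cancer cells and mouse stroma. Each mouse received 1 oral dose of vehicle or of K-975 at 30, 100 or 200 mg/kg, or stayed untreated, and the tumors formed 3 studies, sampled 1 h, 3-6 h or 24 h after dosing. A dosed or untreated cage group held 5 tumors, except for 4 tumors with vehicle in the 24 h study, and the 3-6 h study held 2 cage groups of each dose and of vehicle. In the 1 h and 24 h studies each dose, the vehicle and the untreated tumors were a single cage group each. Treatment and cage cannot be told apart there. The volume was 20 mL/kg for vehicle and for 200 mg/kg but 10 mL/kg for the lower doses, so dose and volume cannot be told apart between those groups. The model is 1 cell line, and each value comes from 1 tumor.

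Of the 94 libraries, 91 listed 11344 to 11665 genes at an FPKM of 1 or more. The other 3 listed fewer than 10000 and are called shallow here, namely replicate 1 of 200 mg/kg at 1 h, replicate 5 of 100 mg/kg at 24 h and replicate 1 of 30 mg/kg at 24 h. They were left out of the tests, and replicate numbers serve only as names. All 12 mesothelial markers examined, among them MSLN, WT1 and CALB2, had a median FPKM of 1 or more. None of 12 heart muscle markers did, and their summed level ranged from 0.197 to 5.87 FPKM.

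NPPB lies on the minus strand at chr1:11857464-11858931 and NPPA on the same strand at chr1:11845709-11848345, with 9118 bases between them, and ANKRD1 lies on the minus strand at chr10:90912096-90921276 (GRCh38, GENCODE 29). The RefSeq promoter table (GRCh38.p14) held NPPA, ANKRD1 and the reference target CCN2, but not NPPB. These windows of 250 bases before and 50 after the RefSeq start were searched on both strands for CATTCC, the core of the M-CAT element that TEAD proteins bind. Of all 35116 windows 14.0% held it. The NPPA window held none and the ANKRD1 window held 2, both as the reverse complement GGAATG, whereas the CCN2 window held 3. Those stretches are shown because K-975 acts on TEAD, with the element in capitals. The first ANKRD1 stretch (chr10:90921277-90921337, minus strand) lies upstream of both annotated starts, the second (chr10:90921198-90921227, minus strand) lies inside the longer first exon of GENCODE 29, and the CCN2 stretch is chr6:131951453-131951572 on the minus strand. A match is a sequence description and not a measured binding site.
ANKRD1 upstream: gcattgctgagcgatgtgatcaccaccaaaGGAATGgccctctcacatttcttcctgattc
ANKRD1 near the start: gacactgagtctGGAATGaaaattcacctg
CCN2 upstream: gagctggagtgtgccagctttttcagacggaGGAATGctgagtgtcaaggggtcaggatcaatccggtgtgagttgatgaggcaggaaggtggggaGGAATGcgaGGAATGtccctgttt

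Further motifs were searched in the same windows. The NPPA window held TATAAA starting 29 bases before the RefSeq start and the AP-1 element TGACTCA, as its reverse complement, starting 240 bases before it. The ANKRD1 window held the GATA element AGATAA, as its reverse complement, starting 52 bases before the start, and neither of the other 2. Of all windows 11.5% held TATAAA, 4.95% TGACTCA and 10.3% AGATAA.

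The 3 members stood at very different levels. NPPB was detected in each of the 91 libraries, with a median of 23.3 FPKM and a range from 5.34 to 63.6 FPKM. ANKRD1 had a median of 1.19 FPKM and reached at most 2.42 FPKM. NPPA was listed at 0 in all 94 libraries, as were 15.8% of the genes in the table. FPKM is scaled per length, but the libraries were enriched with capture probes whose yield can differ between genes, so levels of different genes can be compared only roughly here and below. A gene without RNA and a gene without a working probe cannot be told apart at 0. How mouse reads were handled is not given in the sources used here, so the part of mouse RNA in the values of NPPB and ANKRD1 was not tested.

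The depth behind NPPB and ANKRD1 differed as well. No counts were used here, and the worth of 1 fragment was estimated from the lowest values of genes with a single transcript. On that estimate 1 fragment was worth 0.269 to 1.18 FPKM of NPPB and 0.0945 to 0.413 FPKM of ANKRD1. NPPB then rested on a median of 47.7 fragments per library and ANKRD1 on a median of 6.45. Single values of ANKRD1 are therefore coarse, and its 0 values mean no fragment at this depth.

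Other parts of the natriuretic peptide system were expressed beside NPPB. FURIN, a protease that can cleave pro-B-type natriuretic peptide, had a median of 266 FPKM, while CORIN, the heart protease known for cleaving the atrial prohormone, had 0.158 FPKM. The clearance receptor NPR3 had a median of 18.4 FPKM and NPR2, the receptor of C-type natriuretic peptide, 6.59 FPKM. NPR1, the guanylyl cyclase receptor that binds both heart peptides, had a median of 0.231 FPKM. MME, also called neprilysin, which degrades natriuretic peptides, had 24.2 FPKM and varied from 4.80 to 122 FPKM.

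**Figure D1:**
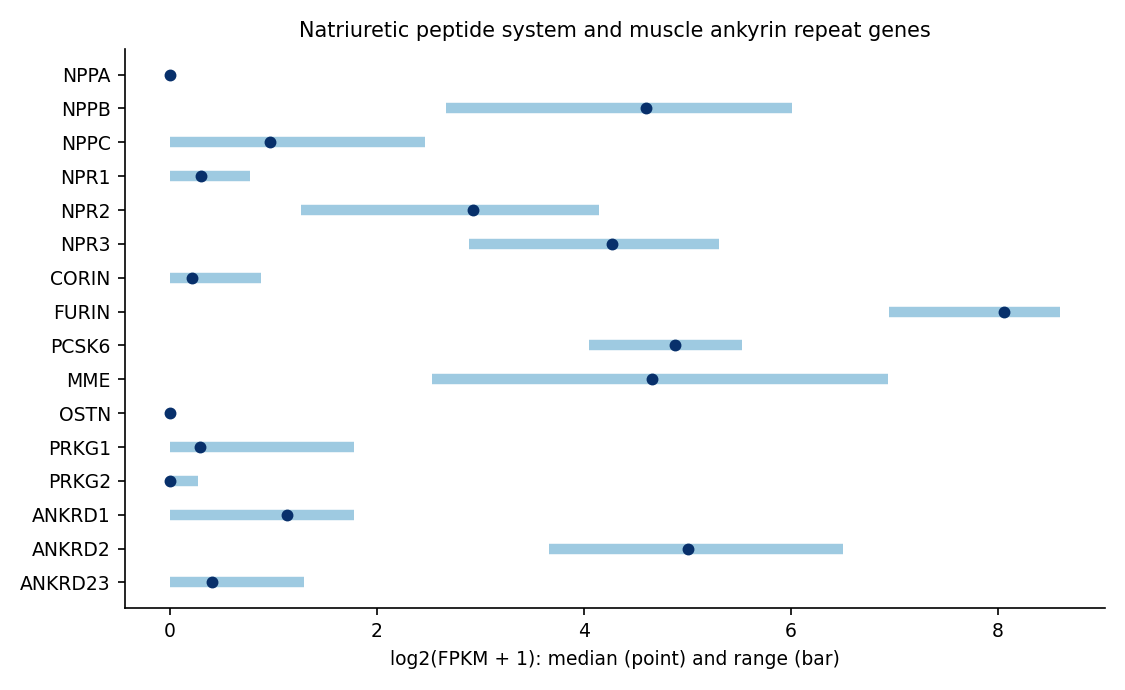
Levels of the natriuretic peptide genes, their receptors and their proteases, and of ANKRD1 with its relatives ANKRD2 and ANKRD23, as log2(FPKM + 1) over the 91 libraries. Points are medians and bars run from the lowest to the highest library. NPPA sits at 0 while NPPB has a median of 23.3 FPKM.

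Among the muscle ankyrin repeat genes ANKRD2 was the most abundant in these tumors, with a median of 31.1 FPKM, whereas ANKRD23 had 0.322 FPKM. Factors known from the NPPA and NPPB promoters of heart muscle were partly present. GATA4 had a median of 10.5 FPKM and GATA6 19.9 FPKM, while TBX5, TBX20 and HAND1 were at 0 in each of the 91 libraries and NKX2-5 had a median of 0. TEAD1 was the TEAD gene with the highest median, at 126 FPKM, and YAP1 had 73.1 FPKM.

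Untreated tumors give the starting levels of NPPB. In the 1 h study they read 13.8, 38.5, 17.4, 24.5 and 19.7 FPKM. In the 3-6 h study they read 23.3, 24.8, 22.8, 36.3 and 15.8 FPKM. In the 24 h study they read 63.6, 36.5, 42.5, 35.6 and 59.5 FPKM. The mean was 47.5 ± 13.1 FPKM (SD, n = 5) at 24 h against 22.8 ± 9.61 and 24.6 ± 7.39 FPKM in the other studies. The ranges overlapped, since the lowest tumor at 24 h had 35.6 FPKM and the highest of the other studies 38.5 and 36.3 FPKM. The difference between studies was not tested. Study and sampling time cannot be told apart in this, so each comparison was made within its own study.

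Mean levels of ANKRD1 in untreated tumors lay closer together between the studies. The means were 1.06 ± 0.296, 1.34 ± 0.651 and 1.35 ± 0.609 FPKM (SD, n = 5 each) at 1 h, 3-6 h and 24 h. The ranges of the 3 studies overlapped.

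**Figure D2:**
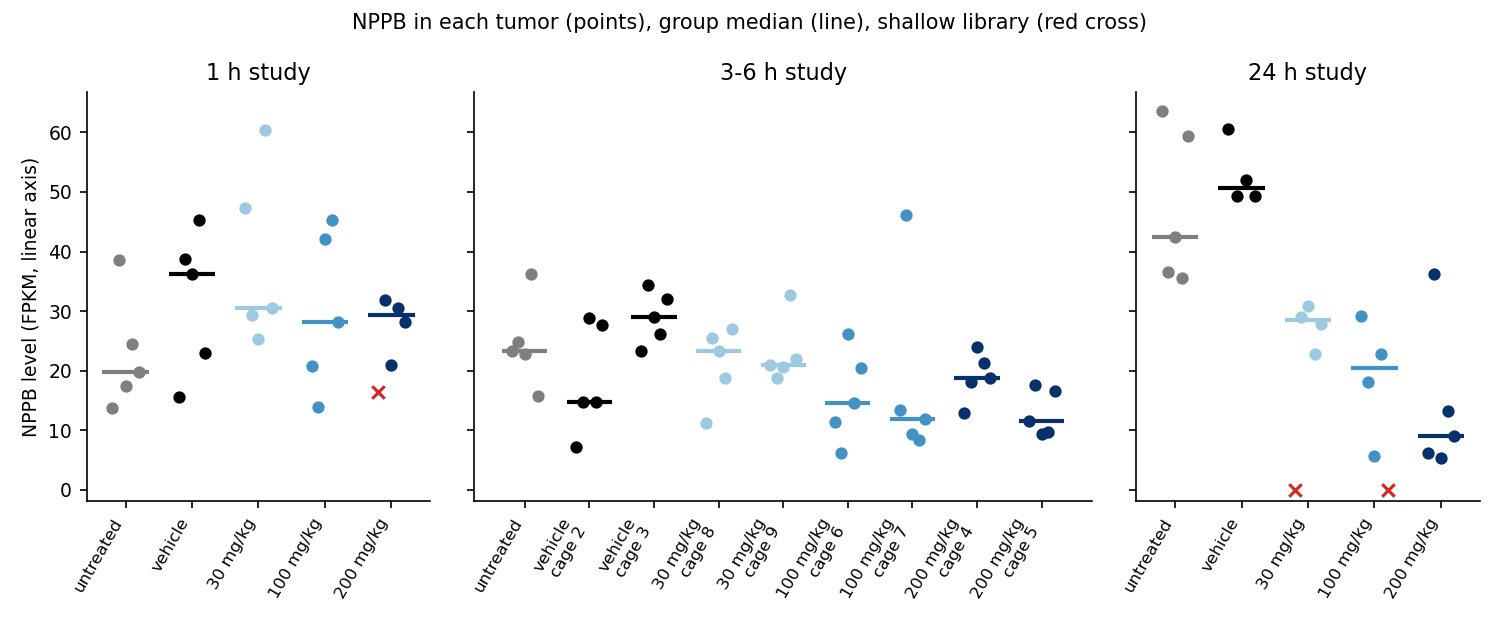
NPPB in each tumor of the 3 studies, in FPKM on a linear axis. Points are tumors, lines are group medians without shallow libraries, and red crosses are shallow libraries. At 24 h the 4 tumors with vehicle sit between 49.3 and 60.6 FPKM, above every K-975 tumor of that study.

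The contrast by which NPPB was chosen, 200 mg/kg against vehicle at 24 h, is a description. With vehicle NPPB read 60.6, 49.4, 51.9 and 49.3 FPKM, a mean of 52.8 ± 5.35 FPKM (SD, n = 4). With 200 mg/kg it read 6.11, 36.3, 5.34, 13.2 and 9.09 FPKM, a mean of 14.0 ± 12.8 FPKM (SD, n = 5). Every treated tumor lay below every vehicle tumor, which held for 3.22% of the 13036 genes tested, while 7.41% of genes passed the limma test in this contrast.

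The fitted log2 fold change of NPPB there was -2.17 (SE 0.38) on the scale of log2(FPKM + 1), the third most negative of all genes tested. Replicate 2 stood apart from the other 4 treated tumors, which ranged from 5.34 to 13.2 FPKM with a mean of 8.44 ± 3.57 FPKM (SD, n = 4). The group mean lay at 26.5% of the vehicle mean with that tumor and at 16.0% without it. The same tumor also had the highest CCN1 and CLIC4 of its group, at 167 and 622 FPKM, where the other 4 had 71.9 to 99.9 FPKM of CCN1 and 346 to 404 FPKM of CLIC4.

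ANKRD1 was lower in the same tumors too, with a mean at 42.6% of the vehicle mean. With vehicle it read 2.14, 2.01, 1.58 and 1.50 FPKM, and with 200 mg/kg 0.473, 1.58, 0.618, 0.235 and 0.950 FPKM. Replicate 2 was again the highest treated tumor and lay above the fourth vehicle tumor, so the groups overlapped. The fitted log2 fold change was -0.71 (SE 0.24). The scale of log2(FPKM + 1) understates the change of a gene at this level, so this value cannot be set directly beside that of NPPB.

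The rule that chose NPPB did not use the tumors that received 100 and 30 mg/kg at 24 h. Earlier results of these data were known at that choice, so the tests below are not fully separate from it. The tumors with 100 and 30 mg/kg were tested against the untreated tumors, because the vehicle tumors had served in that choice. Each of these groups was a single cage group, so dose and cage cannot be told apart. With 100 mg/kg NPPB read 29.2, 18.1, 5.61 and 22.7 FPKM, a mean of 18.9 ± 9.98 FPKM (SD, n = 4) against 47.5 ± 13.1 FPKM in untreated tumors. All 4 lay below all 5 untreated tumors, as was the case for 1.8% of genes tested.

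NPPB fell by 1.44 on the log2 scale (SE 0.38) in this comparison (limma, Benjamini-Hochberg adjusted p = 0.0255). Of the 13036 genes tested 1.99% passed. The pass was narrow. It was lost when any of 4 tumors was left out, with a log2 fold change of -0.98 and adjusted p = 0.29 (limma) without replicate 3 of 100 mg/kg, whose 5.61 FPKM was the lowest of its group. It was also lost without untreated replicate 1 or 5 (limma adjusted p = 0.0847 and 0.0788) and without replicate 2 of 100 mg/kg (limma adjusted p = 0.0591). With all 94 libraries, or with only the compared groups in the fit, the change was -2.27 and -1.44 (limma adjusted p = 0.0688 and 0.144).

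With 30 mg/kg NPPB read 29.1, 30.8, 22.7 and 27.8 FPKM, a mean of 27.6 ± 3.47 FPKM (SD, n = 4). All 4 values lay below all 5 untreated tumors, which held for 1.6% of genes tested. The log2 fold change of -0.73 (SE 0.38, 95% interval -1.49 to 0.03) did not pass (limma adjusted p = 0.447), where 0.353% of genes passed.

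Against the 4 vehicle tumors, given as a description, NPPB lay at 35.8% of the vehicle mean with 100 mg/kg and at 52.2% with 30 mg/kg. Every treated tumor was lower than every vehicle tumor at both doses, as were those of 2.94% of genes at 100 mg/kg and 2.84% at 30 mg/kg. The mean over the 24 h groups went down in steps from vehicle through 30 and 100 to 200 mg/kg, and the ranges of the K-975 doses overlapped one another.

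ANKRD1 at 24 h with 100 mg/kg read 0.183, 0.828, 0 and 1.77 FPKM against 2.20, 1.63, 0.591, 1.30 and 1.01 FPKM in untreated tumors. A log2 fold change of -0.55 (SE 0.24, 95% interval -1.03 to -0.06) did not pass (limma adjusted p = 0.253). With 30 mg/kg ANKRD1 read 1.26, 1.55, 1.83 and 1.24 FPKM, and the log2 fold change was 0.11 (SE 0.24, limma adjusted p = 0.912). The tumors with 30 mg/kg lay inside the untreated range.

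**Figure D3:**
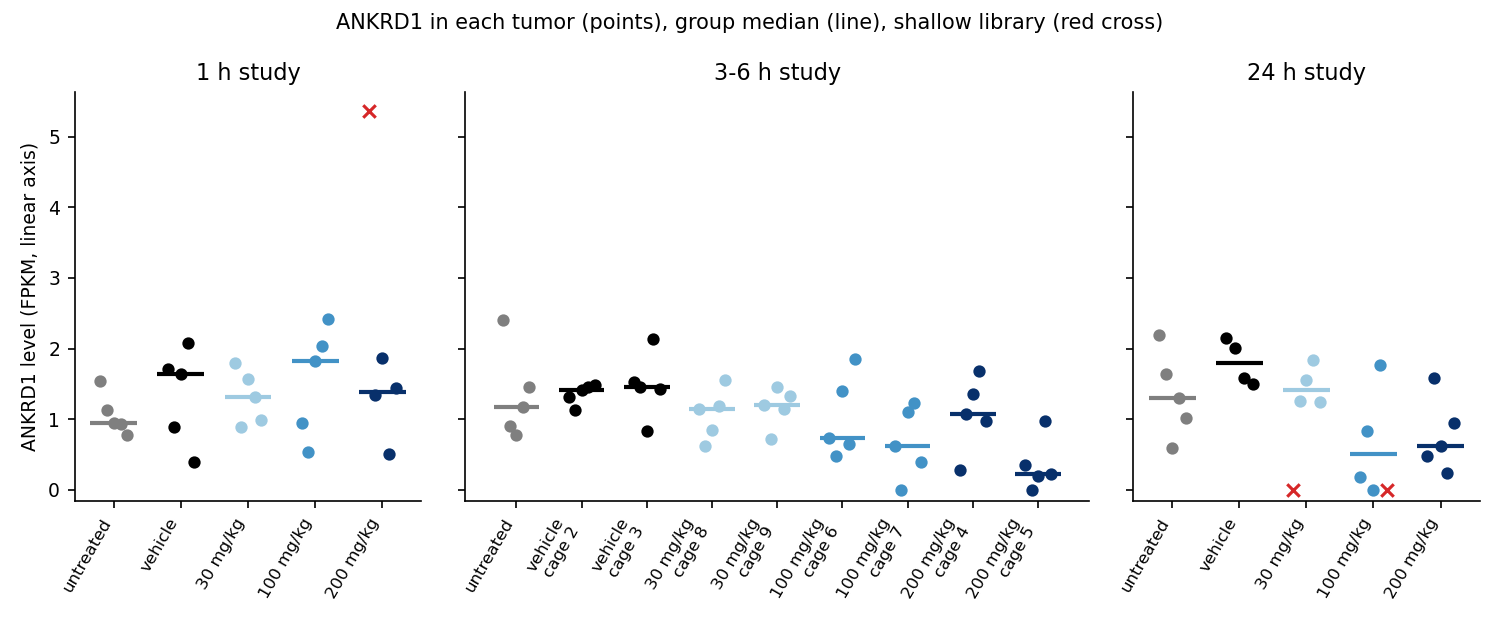
ANKRD1 in each tumor of the 3 studies, in FPKM on a linear axis, with the same symbols as for NPPB. Outside the shallow libraries no tumor exceeds 2.42 FPKM, and cage group 5 of 200 mg/kg at 3-6 h has a median of 0.224 FPKM.

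At 3-6 h both cage groups of a dose were compared with both vehicle cage groups together. The rule that chose NPPB did not use these tumors, though earlier results of these data were known at that choice. The paper lists 3 h and 6 h as separate sampling times. The labels give the time of this study only as 3-6 h and give no time for a cage group. A difference in sampling time between the cage groups of a dose therefore cannot be told apart from other differences between them. Which vehicle cage group matches which dosed cage group in time is not given either. NPPB with vehicle read 7.20, 14.7, 28.9, 14.8 and 27.7 FPKM in cage group 2 and 23.3, 34.3, 29.0, 26.2 and 32.0 FPKM in cage group 3. Cage group 3 was higher by 0.74 on the log2 scale (SE 0.36), which did not pass (limma adjusted p = 0.475). Between these 2 vehicle cage groups 43 genes, or 0.33%, passed. The reference itself thus spanned 7.20 to 34.3 FPKM.

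With 200 mg/kg NPPB read 12.8, 18.1, 24.0, 21.3 and 18.8 FPKM in cage group 4 and 11.5, 17.5, 9.36, 9.69 and 16.6 FPKM in cage group 5. The mean of the 10 tumors was 16.0 ± 4.95 FPKM against 23.8 ± 8.76 FPKM with vehicle (SD, n = 10 each), and all 10 lay below the vehicle median of 27.0 FPKM. So did 8 of the 10 tumors with 30 mg/kg, whose log2 fold change was -0.04. Such counts at 3-6 h were not taken over all genes. With 200 mg/kg the log2 fold change of -0.49 (SE 0.25, 95% interval -1.001 to 0.01) did not pass (limma adjusted p = 0.697), where 0.069% of genes passed. Against vehicle cage group 3 alone the log2 fold change was -0.87, and against cage group 2 alone it was -0.12. Neither passed the threshold (lowest limma adjusted p over the alternatives 0.306). Cage group 4 by itself had -0.60 against vehicle cage group 3 and 0.15 against vehicle cage group 2. Cage group 5 by itself had -1.13 and -0.39, and none of these passed.

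With 100 mg/kg NPPB read 11.4, 6.19, 26.1, 14.6 and 20.4 FPKM in cage group 6 and 13.5, 46.1, 9.45, 8.29 and 11.97 FPKM in cage group 7. Replicate 2 of cage group 7 stood apart, and 9 of the 10 tumors lay below the vehicle median. Its log2 fold change was -0.59 (SE 0.25, 95% interval -1.09 to -0.08) and did not pass (limma adjusted p = 0.389), where 0.43% of genes passed.

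With 30 mg/kg NPPB had a lowest value of 11.2, a median of 21.5 and a highest value of 32.8 FPKM over the 10 tumors. A log2 fold change of -0.04 (SE 0.25, 95% interval -0.54 to 0.47) did not pass (limma adjusted p = 0.987), and 0.0153% of genes passed. The groups overlapped over nearly their whole range, and 8 of the 10 tumors lay below the vehicle median.

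ANKRD1 at 3-6 h had a mean of 1.42 ± 0.330 FPKM with vehicle (SD, n = 10), with 0.830 FPKM as the lowest tumor. With 200 mg/kg it read 0.285, 1.08, 1.35, 1.68 and 0.971 FPKM in cage group 4 and 0.352, 0, 0.202, 0.973 and 0.224 FPKM in cage group 5. Of the 10 treated tumors 5 lay below every vehicle tumor, 4 of them in cage group 5, a count not taken over all genes. The log2 fold change over both cage groups was -0.56 (SE 0.16, 95% interval -0.88 to -0.24) and did not pass over all genes (limma adjusted p = 0.162). With a pseudocount of 0.1 in place of 1 it was -1.31 (limma adjusted p = 0.137), because the level of ANKRD1 lay near the pseudocount.

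Taken by itself, cage group 5 was lower in ANKRD1 by -0.87 on the log2 scale (SE 0.20, limma adjusted p = 0.0237), where 0.276% of genes passed, and by -2.11 with a pseudocount of 0.1 (limma adjusted p = 0.00905). Cage group 4 had a log2 fold change of -0.25 (SE 0.20, limma adjusted p = 0.995). The difference between the 2 cage groups, -0.62 (SE 0.23), did not pass (limma adjusted p = 0.495). Cage group 5 rested on an estimated 1.77, 0, 0.961, 4.41 and 0.881 fragments of ANKRD1, and cage group 4 on 2.44 to 11.1. Libraries of cage group 5 were also shallower, with 1 fragment worth 0.199 to 0.293 FPKM of ANKRD1 against 0.117 to 0.166 FPKM in cage group 4. The part of depth in this result was not tested. The call in cage group 5 was lost against either vehicle cage group alone, against untreated tumors, with only the compared groups in the fit and when any of 4 tumors was left out, with limma adjusted p up to 0.162 under these settings and 0.757 with all 94 libraries.

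With 100 mg/kg ANKRD1 had a lowest value of 0, a median of 0.692 and a highest value of 1.85 FPKM, and 6 of the 10 tumors lay below every vehicle tumor. Its log2 fold change was -0.44 (SE 0.16, limma adjusted p = 0.278). Cage group 7 alone had -0.58 (SE 0.20, limma adjusted p = 0.126), in a comparison in which 1.33% of genes passed. With 30 mg/kg the values ran from 0.621 to 1.56 FPKM and the log2 fold change was -0.19 (SE 0.16, limma adjusted p = 0.84). Of those 10 tumors 2 lay below every vehicle tumor, and these counts were not taken over all genes.

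Dose trends were tested over the 40 dosed tumors of the 3-6 h study, with vehicle as dose 0. For ANKRD1 Spearman's rho with dose was -0.528 and Pearson's r of log2(FPKM + 1) was -0.510 (two-sided permutation tests, adjusted p = 0.0022 and 0.00292 over 4 trends). For NPPB rho was -0.434 and r was -0.346 (two-sided permutation tests, adjusted p = 0.0102 and 0.0582). Leaving out any 2 of the 10 tumors at 200 mg/kg, those farthest from the median dose, kept r between -0.637 and -0.419 for ANKRD1 and between -0.417 and -0.266 for NPPB.

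Tumors of 1 cage group share a cage and a dose, so no trend could be computed within a cage group. Over the means of the 8 cage groups, an alternative added after the data were seen, rho was -0.878 for ANKRD1 (exact permutation test, two-sided, adjusted p = 0.0206) and -0.634 for NPPB (exact permutation test, two-sided, adjusted p = 0.11). Pearson's r was -0.745 for ANKRD1 and -0.614 for NPPB (exact permutation tests, two-sided, adjusted p = 0.0635 and 0.11). At that level the ANKRD1 trend passed by rho but not by r, and the NPPB trend passed by neither. The 2 highest doses did not order the cage groups of NPPB, since cage group 4 of 200 mg/kg had a higher mean than both cage groups of 100 mg/kg.

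**Figure D4:**
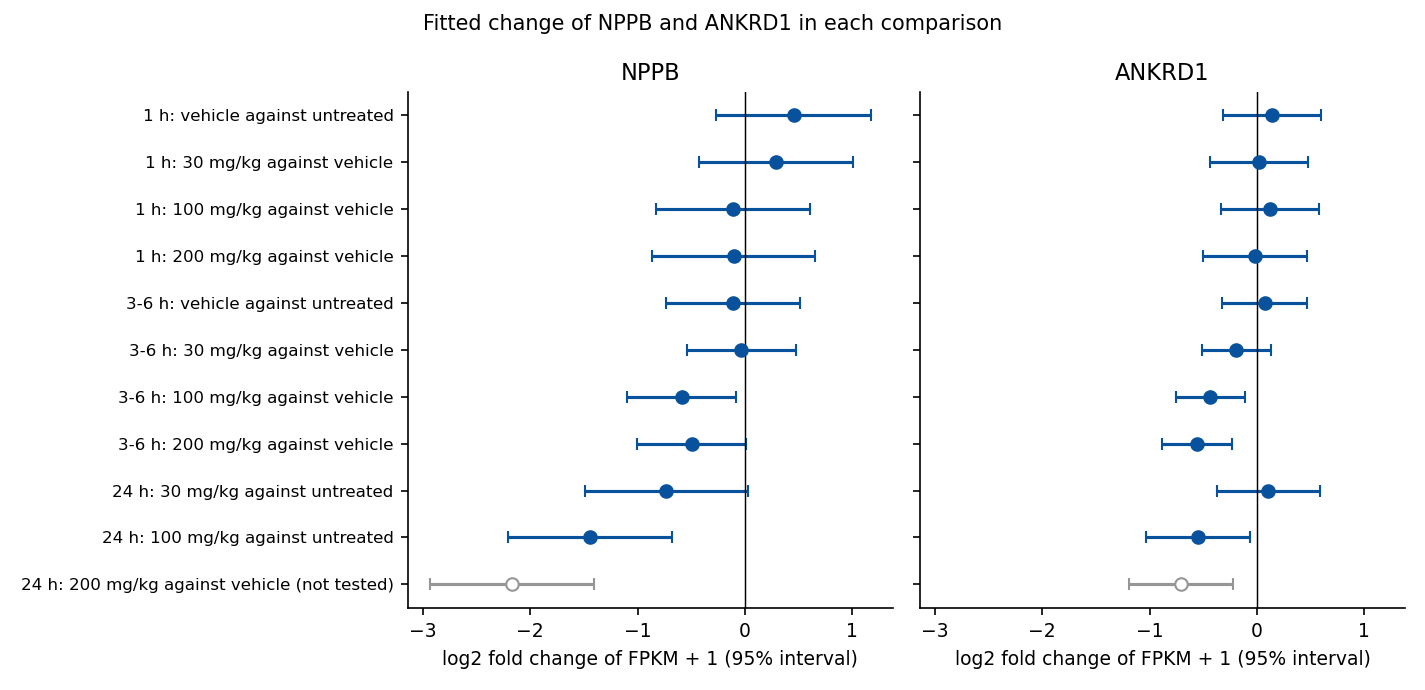
Fitted log2 fold changes of NPPB and ANKRD1 with 95% intervals, on the scale of log2(FPKM + 1), in 11 comparisons. Filled points were tested, and the open point of each gene is the contrast by which NPPB was chosen. The lowest tested NPPB value is -1.44, for 100 mg/kg against untreated tumors at 24 h.

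At 1 h neither gene passed the threshold. Among all genes limma called 0 at 200 mg/kg (435 had an unadjusted p below 0.05), 1 at 100 mg/kg (648) and 0 at 30 mg/kg (571). NPPB with vehicle read 15.6, 38.8, 36.2, 45.3 and 23.0 FPKM, and with 200 mg/kg 31.9, 20.9, 30.5 and 28.2 FPKM. The log2 fold change was -0.11 (SE 0.38, limma adjusted p = 1). At 100 and 30 mg/kg it was -0.11 and 0.29 (SE 0.36 each, limma adjusted p = 0.995 and 1). The 95% interval at 30 mg/kg ran from -0.43 to 1.01, and the groups overlapped at each dose.

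ANKRD1 at 1 h gave log2 fold changes of -0.02 (SE 0.24), 0.12 (SE 0.23) and 0.02 (SE 0.23) at 200, 100 and 30 mg/kg, with limma adjusted p of 1, 0.989 and 1. The rho with dose over the 19 tumors was 0.0480 for ANKRD1 and -0.149 for NPPB (two-sided permutation tests, adjusted p = 0.846 and 0.714).

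The test of the 3-6 h effect minus the 1 h effect did not pass for either gene at any dose. At 200 mg/kg that difference was -0.39 (SE 0.46) for NPPB and -0.54 (SE 0.29) for ANKRD1 (limma adjusted p = 0.9996 for both). For 100 mg/kg against untreated tumors, the 24 h effect on NPPB minus that at 3-6 h was -0.75 (SE 0.49, 95% interval -1.73 to 0.24, limma adjusted p = 0.588).

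Neither gene passed the threshold between vehicle and untreated tumors. Against untreated tumors NPPB had a log2 fold change of 0.45 (SE 0.36, limma adjusted p = 1) at 1 h and -0.11 (SE 0.31, limma adjusted p = 0.996) at 3-6 h. For ANKRD1 the values were 0.14 (SE 0.23) and 0.07 (SE 0.20), with limma adjusted p of 1 and 0.996. At 24 h, as a description, the vehicle mean of NPPB was 52.8 FPKM and that of untreated tumors 47.5 FPKM.

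The reference targets CCN1 and CCN2, matricellular genes driven by YAP and TEAD, are set beside the members. With 200 mg/kg at 3-6 h CCN1 fell by 0.72 on the log2 scale (SE 0.13) and CCN2 fell by 0.63 (SE 0.14), with limma adjusted p of 0.00223 and 0.0338. The group means lay at 61.1% of the vehicle mean for CCN1, 61.6% for CCN2, 67.1% for NPPB and 50.2% for ANKRD1. Neither NPPB nor ANKRD1 passed there (limma adjusted p = 0.697 and 0.162). With 100 mg/kg against untreated tumors at 24 h CCN1 fell by 0.74 and CCN2 fell by 0.95 (limma adjusted p = 0.0306 and 0.00678). NPPB fell by 1.44 in that comparison (limma adjusted p = 0.0255), the narrow pass given above, with a change of -0.98 without replicate 3 of 100 mg/kg. NPPB was chosen in part for its fall at 24 h with 200 mg/kg, unlike the reference targets.

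Genes whose level followed that of the members most closely were ranked by Pearson's r of log2(FPKM + 1) over the 45 libraries of the 3-6 h study, among 11629 genes. For NPPB the first 5 were CLIC4, UAP1, GADD45A, AXL and PPP1R15B, with r from 0.715 down to 0.654. After subtracting group means r was 0.582 to 0.662, which is the likeness among tumors of the same group. In the 24 h study, which held the contrast by which NPPB was chosen, r with CLIC4 was 0.938 and with UAP1 0.904, and in the 1 h study 0.649 and 0.628. CLIC4 is an intracellular chloride channel family protein and UAP1 makes UDP-N-acetylglucosamine.

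CCN1 ranked 20 for likeness to NPPB, with r = 0.612, and CCN2 ranked 222, with r = 0.457. These tumors share libraries and depth, and the correlations are descriptions. CLIC4 fell by 0.50 (SE 0.10, limma adjusted p = 0.00358) and UAP1 fell by 0.63 (SE 0.16, limma adjusted p = 0.0152) with 100 mg/kg against untreated tumors at 24 h, while at 3-6 h neither passed at any dose.

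**Figure D5:**
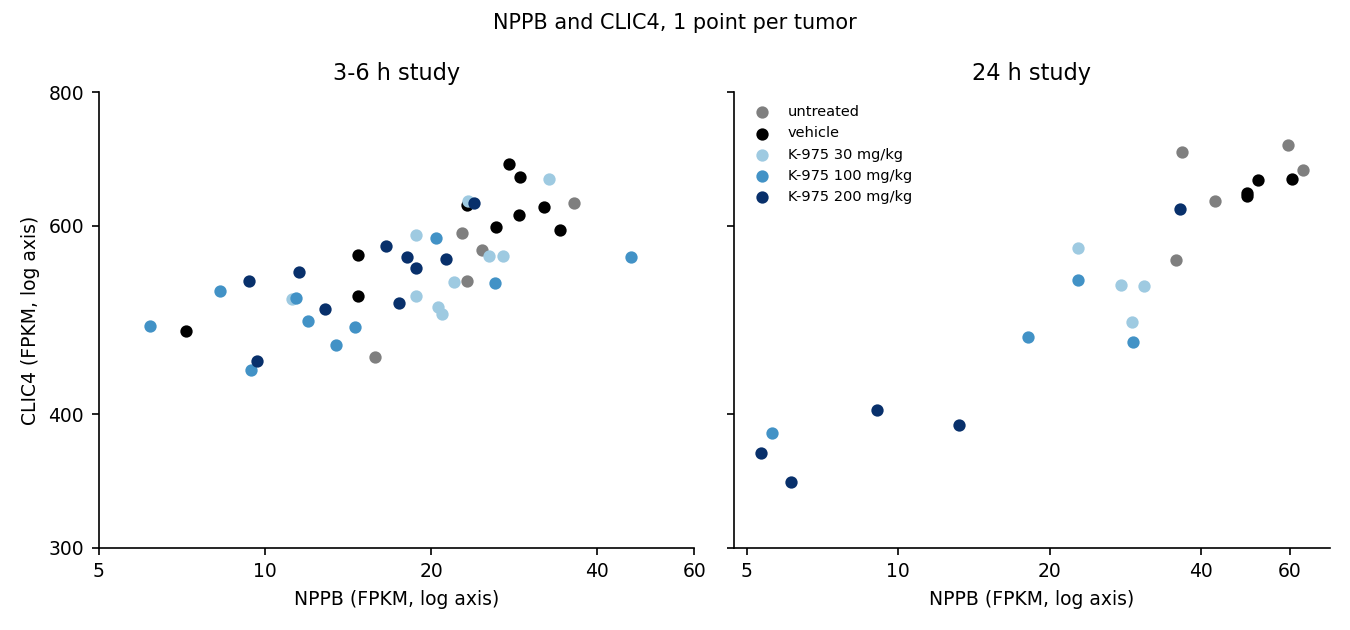
NPPB against CLIC4, both in FPKM on log axes, with 1 point per tumor and colors for treatment. Pearson's r of log2(FPKM + 1) is 0.715 over the 45 tumors of the 3-6 h study and 0.938 over the 22 tumors of the 24 h study.

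For ANKRD1 the first 5 were RASAL2, PKP2, RIMKLB, AJUBA and BDNF, with r from 0.602 to 0.592. After subtracting group means r was 0.283 for PKP2 to 0.535 for BDNF. Their r was lower in the other studies. In the 24 h study r ranged from -0.451 for RIMKLB to 0.478 for AJUBA, and in the 1 h study from -0.196 for RASAL2 to 0.137 for RIMKLB. AJUBA, a LIM protein that restrains Hippo kinases, fell with 200 mg/kg at 3-6 h by 0.37 (SE 0.07, limma adjusted p = 0.00177). There 0.069% of genes passed, and AJUBA was ranked on these same tumors, so its fall is no separate support for the likeness. Against untreated tumors at 24 h AJUBA had -0.06 (limma adjusted p = 0.846) with 100 mg/kg and 0.10 (limma adjusted p = 0.758) with 30 mg/kg.

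The 2 expressed members had a low r with each other before 24 h. NPPB and ANKRD1 had r = 0.254 over the 3-6 h tumors, -0.0877 after subtracting group means, 0.330 at 1 h and 0.672 at 24 h. The 1 h and 24 h values were taken without subtracting group means, and the 24 h study held the contrast by which NPPB was chosen. Single values of ANKRD1 are coarse, at a median of 6.45 fragments per library. In replicate 2 of cage group 7 at 100 mg/kg, where NPPB reached 46.1 FPKM, ANKRD1 was at 0. There 1 fragment was worth an estimated 0.413 FPKM of ANKRD1, the most among the 91 libraries.

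Few other genes of the pathways passed the threshold. Of the natriuretic peptide system, 7 genes besides the members were tested, and none passed in the 5 comparisons of 3-6 h against vehicle and of 24 h against untreated tumors (3 of 35 values at an unadjusted p under 0.05). In these comparisons 0.0153% to 1.99% of all genes passed and 7.03% to 15.4% had an unadjusted p under 0.05, the background for each list below. Their median log2 fold change ran from -0.17 to 0.00, beside 0.01 to 0.03 over all genes. NPR3 had -0.58 (SE 0.19, limma adjusted p = 0.186) with 100 mg/kg at 3-6 h.

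Of the muscle ankyrin repeat family and its sarcomere partners, 6 were tested and none passed in those 5 comparisons (4 of 30 values at an unadjusted p under 0.05), with medians from -0.19 to -0.08. ANKRD2 had -0.80 (SE 0.23, limma adjusted p = 0.0871) with 100 mg/kg at 3-6 h. Of the K-975 cage groups taken by themselves, the gene and marker lists were read only in 5 and 7. These had the most called genes, 36 and 173, against 1, 0, 0 and 4 in cage groups 4, 6, 8 and 9. In cage group 5 of 200 mg/kg, where 0.276% of genes passed, FHL2, a LIM protein of muscle, fell by 0.38 against vehicle (SE 0.09, limma adjusted p = 0.0354). None of 9 further genes of the fetal and stressed heart muscle program passed in the 5 comparisons (3 of 45 values at an unadjusted p under 0.05).

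Of 32 factors known from the NPPA and NPPB promoters, 1 passed in the 5 comparisons, with 100 mg/kg at 24 h, where 1.99% of all genes passed. JUN, an AP-1 subunit, fell by 0.81 (SE 0.24, limma adjusted p = 0.0486) there. GATA4 had 0.03 (SE 0.21, limma adjusted p = 0.963). Of 19 ligands and mechanosensors known to raise NPPB or ANKRD1, IL1A fell by 1.44 (SE 0.38, limma adjusted p = 0.0223) in the same comparison. Its level was low, with a median of 0.873 FPKM over all libraries, and no other ligand or mechanosensor passed. In cage group 7 of 100 mg/kg at 3-6 h taken by itself, where 1.33% of genes passed, the promoter factor TEAD4 fell past the threshold.

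Of the 21 other genes of the YAP and TAZ signature, 3 fell with 200 mg/kg and 3 with 100 mg/kg at 3-6 h, namely AMOTL2, CCN1 and CCN2 each time, and none rose, where 0.069% and 0.43% of all genes passed. With 100 mg/kg at 24 h CCN1, CCN2, IGFBP3 and CRIM1 fell, where 1.99% passed, and with 30 mg/kg none passed at either time. The median of the signature was -0.12, -0.14 and -0.26 in the first 3 of these comparisons. AMOTL2 had a log2 fold change of -0.04 (limma adjusted p = 0.926) with 100 mg/kg at 24 h.

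The neighbours of the members on the chromosome were read in the same fits. Of the genes within 150 kb, 7 could be tested, 6 near NPPB and RPP30 near ANKRD1, and 0 of 35 values passed in the 5 comparisons (3 at an unadjusted p under 0.05), with log2 fold changes from -0.35 to 0.28. Outside these 5, PLOD1 rose in cage group 7 of 100 mg/kg at 3-6 h, by 0.29 (SE 0.08, limma adjusted p = 0.0445), where 1.33% of genes passed. Its 24 h effect of 100 mg/kg against untreated tumors minus that at 3-6 h was -0.53 (limma adjusted p = 0.0257), where 0.575% passed. KIAA2013 and CLCN6, which flank the peptide genes, had medians of 18.1 and 15.3 FPKM.

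Markers of other cell types were read beside these results. Of the heart muscle markers 4 could be tested, and none passed in any of 7 comparisons (2 of 28 values at an unadjusted p under 0.05). The 7 were the 5 named above and cage groups 5 and 7 taken by themselves. At 24 h their summed level was 0.655 to 2.30 FPKM in untreated tumors, 2.72 to 5.03 FPKM with 100 mg/kg and 0.782 to 2.01 FPKM with 30 mg/kg. At 3-6 h it was 2.30 to 3.40 FPKM with vehicle and 0.197 to 4.68 FPKM with 200 mg/kg. MYH6, MYH7, MYL7 and NKX2-5 had a median of 0, while TNNT2, TNNI3 and ACTN2 had 0.689, 0.651 and 0.266 FPKM. The part of heart muscle markers in the NPPB results was not tested. With 100 mg/kg against untreated tumors at 24 h, where 1.99% of all genes passed, 2 of 12 mesothelial markers rose. CALB2 rose by 0.45 and LRRN4 by 0.51 (limma adjusted p = 0.0167 and 0.0373). Both also rose with 30 mg/kg (limma adjusted p = 0.0211 for each), where 0.353% passed. The summed mesothelial level at 24 h was 3325 to 3959 FPKM in untreated tumors and 3547 to 4361 FPKM with 100 mg/kg. At 3-6 h VIM, another of the 12 markers, rose in cage group 7 of 100 mg/kg taken by itself, where 1.33% of genes passed. The part of these markers in the NPPB result was not tested.

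Genes known as markers of stroma and blood vessels were read in the 5 comparisons too. The stroma is of mouse and the genome named for the reads is human, so these values may not measure its amount. The most abundant were COL1A1, COL3A1, CD68 and KDR, with medians of 560, 267, 139 and 63.9 FPKM. PECAM1, CLDN5, LYZ and CD163 had a median of 0, and PTPRC and DCN had 0.168 and 0.717 FPKM. Of the fibroblast and mural markers all 8 could be tested, and of the endothelial 4 and the leukocyte and macrophage markers 5, and none of these passed. The median log2 fold change of the fibroblast and mural markers was 0.36, 0.48 and 0.18 with 200, 100 and 30 mg/kg at 3-6 h, beside 0.01 over all genes, and 0.26 and 0.01 with 100 and 30 mg/kg at 24 h. In cage group 7 of 100 mg/kg, where 1.33% of all genes passed, PDGFRA, a receptor of fibroblasts, rose by 0.92 (SE 0.26, limma adjusted p = 0.0424). Its level was low, with a median of 0.141 FPKM and 24 libraries at 0. The medians ran from -0.06 to 0.25 for endothelial and from -0.09 to 0.15 for leukocyte and macrophage markers. At 24 h the summed fibroblast and mural level was 696 to 1079 FPKM in untreated tumors and 905 to 1239 FPKM with 100 mg/kg. At 3-6 h it was 620 to 977 FPKM with vehicle and 624 to 1030 FPKM with 200 mg/kg. The part of these markers in the results for NPPB and ANKRD1 was not tested. In bulk tumors, fewer cells that express NPPB and less NPPB RNA per cell cannot be told apart.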

How the data were processed

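RNA of 94 NCI-H226 xenografts was sequenced by the authors after library preparation with capture-probe enrichment. Per the labels, the submitters' processing notes name STAR and GRCh38. The quantifier, the annotation and the handling of mouse reads are not given in the sources used here. The authors deposited FPKM values, fragments scaled by transcript length and library size, for 20555 entries. The entry with the highest mean was kept for each of 20239 gene IDs, and 32 blank cells were read as 0. Because no counts were used, limma 3.58.1 (R 4.3.3, trend and robust) was fitted on log2(FPKM + 1), with 1 coefficient for each of 19 groups, over 13036 genes at an FPKM of 1 or more in at least 4 of the 91 libraries that were not shallow. The Benjamini-Hochberg adjustment ran over all genes of a comparison, with a threshold of 0.05. A fold change on this scale understates that of low genes such as ANKRD1, and NPPA did not pass the filter. Dose trends used 100000 permutations. The fit was tested on simulated data with known changes. Named genes were the members, list genes that passed or define a list, neighbours within 150 kb, the 5 genes with the highest r for NPPB and for ANKRD1, and CCN1 and CCN2. The members, lists, neighbours and the limit for shallow libraries were chosen with earlier results of these data known. Alternatives were all libraries, another pseudocount, no filter, quantile normalization, other references, fewer groups in the fit and each tumor left out. P-values measure the spread between tumors of separate mice that can share a cage, and replicate numbers only name tumors.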

Additional observations from a re-analysis of the deposited data

Results flagged for a closer look

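Of 38 groups examined for NPPB or ANKRD1, 5 held a tumor whose distance from its nearest neighbour took up more of the group's range than chance allows in about 1 of 20 groups. NPPB at 46.1 FPKM in replicate 2 of cage group 7 (100 mg/kg, 3-6 h) lay above the 8.29 to 13.5 FPKM of the other 4 tumors. NPPB at 32.8 FPKM in replicate 4 of cage group 9 (30 mg/kg, 3-6 h) lay above 18.8 to 22.03 FPKM. NPPB at 36.3 FPKM in replicate 2 of 200 mg/kg at 24 h lay above 5.34 to 13.2 FPKM. NPPB at 0 FPKM in replicate 1 of 30 mg/kg at 24 h, a shallow library, lay below 22.7 to 30.8 FPKM.

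ANKRD1 at 5.36 FPKM in replicate 1 of 200 mg/kg at 1 h, a shallow library that no comparison used, lay above the 0.510 to 1.87 FPKM of its group and above the highest vehicle tumor of that study, at 2.09 FPKM.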

How the results depend on the processing

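Over all alternatives, with dose trends counted by rho only, 1060 values of NPPB and ANKRD1 stayed on the same side of the threshold. Another 16 lost it and 1 passed it. Of the 1060, 44 changed sign, all of values that did not pass. NPPB with 100 mg/kg against untreated tumors at 24 h lost the call with all 94 libraries (-2.27) and with only the compared groups in the fit (-1.44), and ranged from -1.71 to -0.98 with 1 tumor left out. NPPB with 30 mg/kg passed with all 94 libraries (-1.70), where the shallow library listed NPPB at 0. ANKRD1 in cage group 5 lost the call with all 94 libraries and with only the compared groups (-0.87 each), against untreated tumors (-0.79) and against vehicle cage group 2 (-0.84) or 3 (-0.89) alone, and ranged from -1.01 to -0.77 with 1 tumor left out. With a pseudocount of 0.1 ANKRD1 went from -0.87 to -2.11 in cage group 5, from -0.58 to -1.40 in cage group 7, from -0.56 to -1.31 with 200 mg/kg at 3-6 h and from -0.55 to -1.51 with 100 mg/kg at 24 h, each on the same side of the threshold. The NPPB dose trend lost the call over cage-group means (rho -0.634), a setting chosen after seeing the data. The ANKRD1 trend by r, outside that count, lost it there too (r -0.745, exact permutation test, two-sided, adjusted p = 0.0635). Except where a value shows it, the cause was not tested.

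Counts of called genes moved more. At 3-6 h, 9 genes with 200 mg/kg became 0 to 27, 56 with 100 mg/kg became 1 to 82 and 2 with 30 mg/kg became 0 to 49. At 24 h, 260 genes with 100 mg/kg became 5 with all libraries and 14 with only the compared groups, and 46 with 30 mg/kg became 4113 and 0. With 1 tumor left out they ran from 53 to 365 and from 1 to 110. Cage group 5 went from 36 to 0 and 2, and cage group 7 from 173 to 0 and 14, under those settings. No paired analysis was possible because the labels give tumors no replicate number shared between groups. ANKRD1 rested on a median of 6.45 fragments per library.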
